A study of Mus musculus with 7 samples.

Results

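Transcript signals of 4 enzymes of mitochondrial fatty acid oxidation (Cpt1b, Acadl, Acadm and Hadh), of the uncoupling protein gene Ucp3 and of the nuclear receptor gene Ppara were examined in mouse soleus muscle. The 6 genes were taken by symbol from the platform annotation, each has 1 probe, and they make up 6 of the 223 probes and 6 of the 203 named genes on the array. All 7 samples are soleus muscles of tenascin-C deficient (Tnc null) mice of the 129/SV strain that were kept as cage controls, and they form 1 group with 7 biological replicates. RNA came from cryosections of the muscle belly, so it holds every cell type of the tissue. The sources used here give no age, sex or design of the null allele. No wild-type or treated muscle was analysed here, so the values describe null muscle and carry no comparison with intact Tnc. Replicate numbers follow accession order and serve as names. The label of replicate 1 carries a different code from those of the other 6, and what the code stands for is not stated.

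Slow muscle such as soleus burns long-chain fatty acids in its mitochondria. Cpt1b, the muscle carnitine palmitoyltransferase, couples the activated fatty acid to carnitine for entry into the mitochondria and is a control point of the pathway. Inside, the acyl-CoA dehydrogenases for long chains (Acadl) and medium chains (Acadm) carry out the first oxidation of each cycle, and the 3-hydroxyacyl-CoA dehydrogenase Hadh carries out the next one on shorter chains. Ucp3 is a mitochondrial carrier protein of skeletal muscle whose transcript follows fatty acid supply, and PPAR-alpha, the product of Ppara, is a fatty acid sensor that acts as a transcription factor on genes of this pathway. It binds DNA together with RXR at 2 copies of AGGTCA in the same direction with 1 base between them.

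The promoter windows of the members are shown as sequence context, and elements bound by such regulators were searched for in them. Of the 6 members, 5 matched the RefSeq promoter table (build GRCm38.p6), all but Cpt1b, with windows of 300 bases from 250 before to 50 after the annotated start. Below, a stretch upstream of the start is given for each, 5′ to 3′ on the gene's strand, with matches to AGGTCA or GGGCGG (the GC box bound by Sp1) on either strand in capitals.
Acadl, chr1:66863310-66863404, minus strand: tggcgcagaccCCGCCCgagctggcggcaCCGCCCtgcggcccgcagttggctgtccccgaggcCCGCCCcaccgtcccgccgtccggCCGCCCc
Acadm, chr3:153944834-153944893, minus strand: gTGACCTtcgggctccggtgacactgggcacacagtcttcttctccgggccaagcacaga
Hadh, chr3:131272102-131272181, minus strand: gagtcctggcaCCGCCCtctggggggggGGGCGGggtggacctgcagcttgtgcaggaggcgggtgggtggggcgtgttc
Ucp3, chr7:100472831-100472960, plus strand: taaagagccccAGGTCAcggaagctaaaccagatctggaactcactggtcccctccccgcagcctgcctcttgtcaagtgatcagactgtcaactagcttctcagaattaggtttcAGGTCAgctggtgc
Ppara, chr15:85735550-85735685, plus strand: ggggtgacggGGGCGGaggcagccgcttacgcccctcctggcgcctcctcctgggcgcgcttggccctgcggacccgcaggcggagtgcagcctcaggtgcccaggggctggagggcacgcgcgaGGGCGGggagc
A single AGGTCA was found in the windows of Acadm (1 match, at -249) and Ucp3 (2 matches, at -149 and -44), against 16.3% of all 32851 promoter windows. GGGCGG was found in those of Acadl (4 matches), Hadh (4 matches, 2 of them after the start) and Ppara (2 matches), against 35.7% of all windows. The full repeat (AGGTCA, any base, AGGTCA) and the extended element TCAAGGTCA, each of which contains AGGTCA, matched no member, and they matched 0.0396% and 0.423% of all windows. These are matches of letters in a window of the reference sequence and say nothing about binding in these muscles.

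The deposited values are linear spot intensities, which the authors scaled to the summed signal of each array, and every level below is a percent of the array sum. As a floor, the 10th percentile of all probes was used for each array. A reading counts as clearly above the floor where it is more than 3 times that level. Replicate 3 stood apart. Its log2 values had a median r of 0.28 across probes with the other arrays, against 0.91 to 0.95 for the other 6 arrays with all others. Its floor was 0.15% and its median probe 0.18%, against floors of 0.04% to 0.08% and medians of 0.07% to 0.13% on the others, and 29 of its probes were clearly above the floor against 42 to 70. The 6 muscle fibre markers on the array (Myh7, Myh2, Myh1, Ttn, Mb and Des) summed to 2.04% in replicate 3 and to between 22.5% and 30.6% on the other arrays, with each of the 6 clearly above the floor there. In whole muscle, fewer fibres and less RNA per fibre cannot be told apart. The 28S rRNA probe read 0.37% in replicate 3, against 3.48% to 49.7% on the others. The part of RNA or array quality in these differences was not tested. Levels, spread and the pairs of members are therefore given with and without replicate 3. Replicates 1 and 2 were close to each other (r = 0.992 across probes), and 153 of the 223 probes agreed within 1 recording step of 0.01%. For the 6 members their values differed by 0.02% to 0.06% of the array sum, and they were counted as separate animals.

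On the 6 arrays other than replicate 3, Acadl, Hadh and Ucp3 were clearly above the floor on every array, Cpt1b and Acadm on 4 arrays, and Ppara on none. That is 3 of 6 members on every array, where 17.0% of all probes were so, and 1 member on no array, where 57.0% of all probes were so. In replicate 3 none of the 6 was. Signals of different probes depend on the primer and the spot, so the levels below describe each probe by itself.

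Cpt1b, which controls the entry step, had the smallest spread of the 6 on the deposited scale. It carried 0.23%, 0.19%, 0.19%, 0.22%, 0.19%, 0.26% and 0.22% of the array sum in replicates 1 to 7. The mean was 0.218% ± 0.0264 without replicate 3 (SD, n = 6) and 0.214% ± 0.0264 with it (SD, n = 7). The highest of the 6 arrays was 1.37 times the lowest, and relative to the array median 1.94 times, when only Acadl had a wider range. Replicate 6 was highest, and replicates 2, 3 and 5 shared the lowest reading. The signal was 4.60 to 5.50 times the floor in replicates 1, 2, 6 and 7 but 2.75 and 2.38 times in replicates 4 and 5, whose floor was higher.

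Acadl, the long-chain dehydrogenase, carried 0.53%, 0.47%, 0.21%, 0.41%, 0.40%, 0.71% and 0.47% in replicates 1 to 7. The mean was 0.498% ± 0.114 without replicate 3 (SD, n = 6) and 0.457% ± 0.151 with it (SD, n = 7). Replicate 6 was highest, and replicate 3 lay below each of the other arrays. On those arrays the signal was 5.0 to 14.2 times the floor.

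Acadm, the medium-chain dehydrogenase, carried 0.17%, 0.13%, 0.19%, 0.24%, 0.24%, 0.30% and 0.21% in replicates 1 to 7. The mean was 0.215% ± 0.0596 without replicate 3 (SD, n = 6) and 0.211% ± 0.0552 with it (SD, n = 7). On the deposited scale it had the widest range of the 6 members on these 6 arrays, 2.31 times from replicate 2 to replicate 6. Relative to the array median its range was 1.62 times and that of Acadl, 2.40 times, was the widest. Replicates 1 and 2 were lower than each of replicates 4 to 7, and replicate 3 lay between these sets. In replicates 4 and 5 the signal was 3.0 times the floor, exactly at the limit for a clear signal.

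Hadh, which carries out the second oxidation of the cycle, carried 0.51%, 0.46%, 0.22%, 0.63%, 0.57%, 0.85% and 0.65% in replicates 1 to 7. The mean was 0.612% ± 0.137 without replicate 3 (SD, n = 6) and 0.556% ± 0.194 with it (SD, n = 7). Replicate 3 was lowest and replicate 6 highest, and replicates 1 and 2 were below each of replicates 4 to 7. The signal was 7.12 to 17.0 times the floor on the 6 arrays.

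Ucp3 carried 0.18%, 0.23%, 0.28%, 0.34%, 0.28%, 0.32% and 0.24% in replicates 1 to 7. The mean was 0.265% ± 0.0599 without replicate 3 (SD, n = 6) and 0.267% ± 0.055 with it (SD, n = 7). Replicate 4 was highest and replicate 1 lowest, and replicates 1 and 2 lay below each of replicates 4 to 7. Replicate 3 lay within the range of the other animals, but its reading was 1.87 times its floor, against 3.50 to 6.40 times on the other arrays.

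Ppara, the regulator, carried 0.09%, 0.07%, 0.25%, 0.13%, 0.10%, 0.12% and 0.09% in replicates 1 to 7. The mean was 0.10% ± 0.0219 without replicate 3 (SD, n = 6) and 0.121% ± 0.0601 with it (SD, n = 7). Replicate 3 was above each of the other arrays, as were 70.4% of all probes. All readings were 1.25 to 2.40 times the floor, so Ppara stayed under the limit for a clear signal on every array, and a rounding error of 0.005% is up to 7.14% of its value. Each result on Ppara below rests on these readings near the floor.

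**Figure D1:**
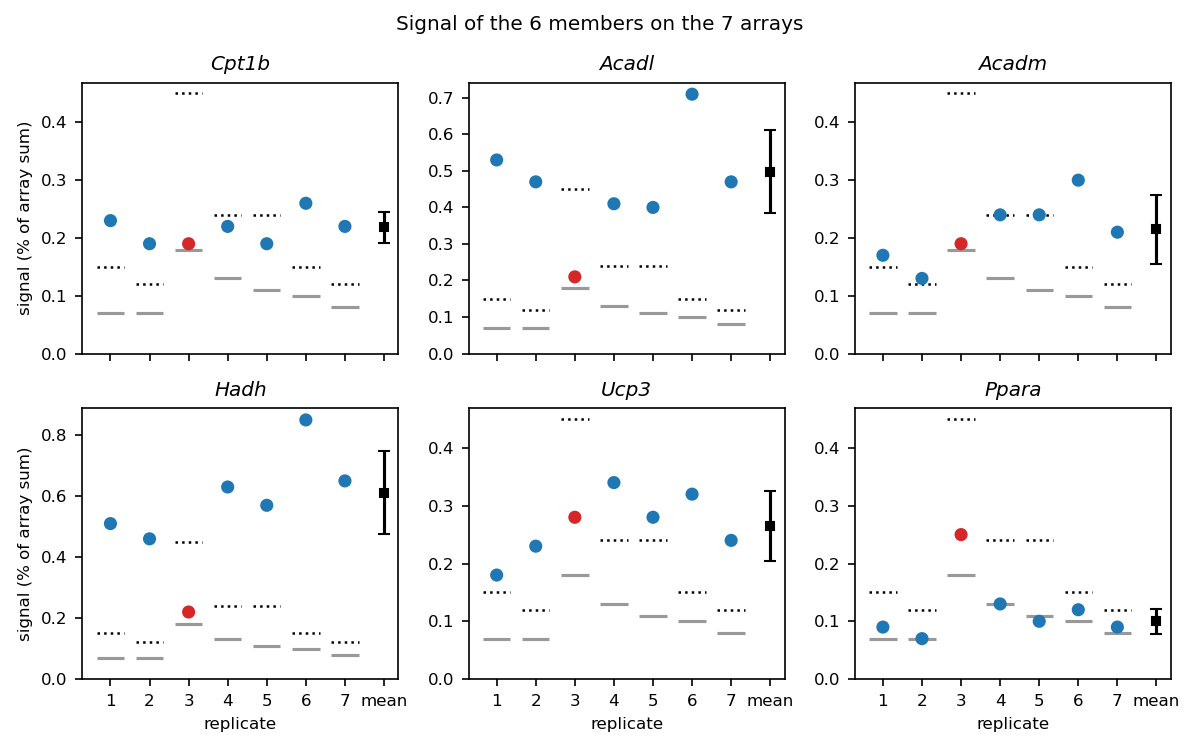
Signal of each member as percent of the array sum (y axis, from 0) on replicates 1 to 7 (x axis), with replicate 3 in red, 3 times the array's floor as a dotted line and the array median as a grey line. Black squares and bars give the mean ± SD of the 6 arrays without replicate 3. Hadh and Acadl lie far above the dotted line except in replicate 3, while Ppara lies below it everywhere.

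In replicate 3 the 6 members read between 0.19% and 0.28%, close together and close to the array median of 0.18%. On the deposited scale 2 members, Acadl and Hadh, were lower there than on every other array, where 14.3% of all probes were so. As read, they differed by -1.22 and -1.45 on the log2 scale from their mean over the other arrays. All 6 readings of replicate 3 were only 1.27 to 1.87 times its floor, so they bound the levels there from above and do not measure them. The medians of the arrays ran from -0.51 for replicates 1 and 2 to 0.85 for replicate 3 on the log2 scale around the middle array. Relative to the array median, all 4 enzymes and Ucp3 were lower in replicate 3 than on every other array, where 30.5% of all probes were so. Replicate 3 is 1 array, so these differences have no replicate check.

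The rank of a probe on its array does not depend on scaling. On the 6 arrays other than replicate 3, Hadh stood at percentiles 87.9 to 89.7 of the 223 probes and Acadl at 83.0 to 90.1. Cpt1b stood at percentiles 73.1 to 82.3, Acadm at 74.2 to 80.7, and Ucp3 at 77.1 to 82.5. In replicate 3 Hadh stood at percentile 64.1, Acadl at 61.4, Cpt1b and Acadm at 54.0, and Ucp3 at 73.8, each below its range on the other arrays. Ppara ranged over percentiles 37.2 to 63.5 and stood at 69.3 in replicate 3. Of 7 endothelial markers, the 6 on the array summed to 9.66% in replicate 3, of which Pecam1 made up 8.36%, against 0.50% to 1.35% on the other arrays. Without Pecam1 the sum was 1.3% there and 0.39% to 0.90% on the others. Cdh5 read 0.60% in replicate 3, and the other 4 read 0.16% to 0.22%, near its floor of 0.15%, where 70.4% of all probes were higher than on every other array. On those arrays Pecam1 and Cdh5 were clearly above the floor on 3, Flt1 on 1, and Kdr, Tek and Nos3 on none. Their part in the member values was not tested.

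**Figure D2:**
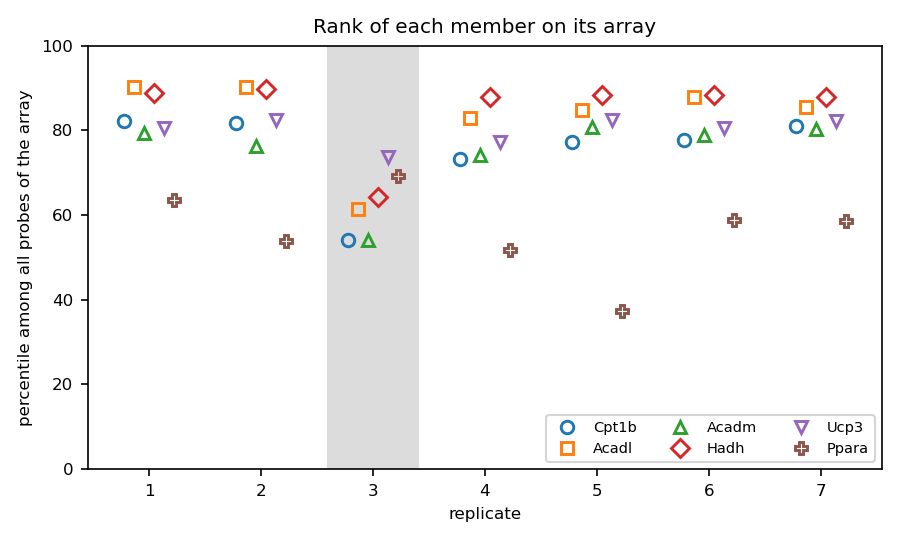
Percentile of each member among the 223 probes of its array (y axis) on replicates 1 to 7 (x axis), with replicate 3 shaded. The 4 enzymes and Ucp3 stand at percentiles 73.1 to 90.1 on the 6 other arrays, and Hadh and Acadl stand at 64.1 and 61.4 in replicate 3.

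Among the 6 arrays without replicate 3, all 4 enzymes had their highest signal in replicate 6. Of all probes, 9.87% had their highest signal there. This array also had the most probes clearly above the floor, 70. Relative to the array median, replicate 6 remained the highest for Acadm (3.0 times the median) and Hadh (8.50 times), where 13.0% of all probes were highest. For Cpt1b and Acadl replicate 1 was then the highest, at 3.29 and 7.57 times the median. Ucp3 had its highest signal in replicate 4 on the deposited scale and in replicate 2, at 3.29 times the median, on the other scale.

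Acadm, Hadh and Ucp3 were higher in each of replicates 4 to 7 than in replicates 1 and 2, where 30.0% of all probes were so. The 28S rRNA probe split these arrays in the same way, with 3.48% and 3.79% in replicates 1 and 2 against 24.1% to 49.7% in replicates 4 to 7, and the array medians were 0.07% in replicates 1 and 2 and 0.08% to 0.13% in the others. Relative to the array median none of the 6 members separated these arrays in that direction, where 15.7% of all probes did. The part of the 28S signal in the member values was not tested.

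**Figure D3:**
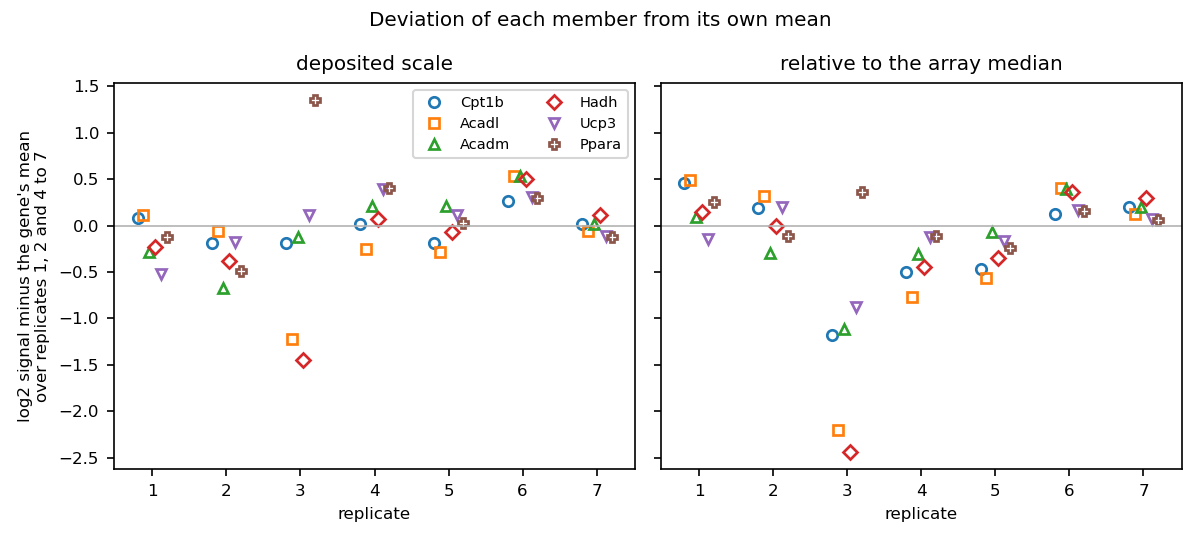
Log2 signal of each member minus its own mean over replicates 1, 2 and 4 to 7 (y axis) on replicates 1 to 7 (x axis), on the deposited scale (left) and relative to the array median (right). In replicate 3, whose readings lie near its floor, Acadl and Hadh lie at -1.22 and -1.45 on the left, and all members but Ppara lie below 0 on the right.

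Whether any member differed between the mice by more than other probes of like level was tested with limma, whose variance trend was fitted to all probes. None of the 6 members was called as more variable than the trend. Over all 7 arrays limma called 0 of 223 probes (0%) at a Benjamini-Hochberg adjusted p under 0.05, with 17 at an unadjusted p under 0.05. Without replicate 3 limma called 5 probes (2.24%), none of them a member, with 22 at an unadjusted p under 0.05, again no member. Without replicate 3 the SD on the log2 scale was 0.17 for Cpt1b, where the trend was 0.40 (limma adjusted p = 0.994). It was 0.43 for Acadm, where the trend was also 0.40 (limma adjusted p = 0.949). The other 4 members had an SD of 0.30 to 0.34. The median SD was 0.32 over the 6 members and 0.44 over all probes. Over all 7 arrays it was 0.46 and 0.69. Relative to the array median the order turned, with a median SD of 0.31 for the members and 0.29 for all probes without replicate 3.

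The co-variation of the members was measured for each of their 15 pairs by the correlation of log2 signals. P-values came from exact two-sided permutation tests and were adjusted over all 24753 pairs of probes on the array. Over all 7 arrays 11 of the 15 correlations were positive, where 71.1% of all pairs were so. The median r of the 15 was 0.33, against a median of 0.72 over all pairs. The test called 1 of the 15, where 48.2% of all pairs were called and 41.2% were called with a positive r. At an unadjusted p under 0.05 there was also 1 of the 15, against 57.2% of all pairs. This pair was Acadl and Hadh, with r = 0.89 (exact permutation p = 0.0194, adjusted p = 0.043, n = 7) and rho = 0.54 (exact permutation p = 0.221, adjusted p = 0.309). On the deposited scale its r depends on replicate 3. Without the arrays farthest from the median of Acadl, replicates 3 and 6, r was -0.46, and without replicate 3 alone it was 0.56 (exact permutation p = 0.25, adjusted p = 0.378, n = 6). Without 1 of the other arrays r was 0.85 to 0.93, with an adjusted p of 0.052 to 0.180 over the 6 arrays left. In replicate 3 both readings were near the floor.

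Without replicate 3, 14 of the 15 correlations were positive, where 76.8% of all pairs were so. The 15 ran from -0.03 for Acadl and Ucp3 to 0.90 for Acadm and Hadh, with a median r of 0.66. The median over all pairs was 0.64. The exact permutation test called 0 of the 15 and 0 of all pairs after adjustment, and at an unadjusted p under 0.05 there were 2 of the 15 and 26.3% of all pairs. With 6 arrays the smallest possible p was 0.00139, and the smallest adjusted p over all pairs was 0.132. The closest pair was Acadm and Hadh with r = 0.90 (exact permutation p = 0.0167, adjusted p = 0.132, n = 6) and rho = 0.81 (exact permutation p = 0.0722, adjusted p = 0.219). When replicates 2 and 6 were dropped, which lay farthest from the median of Acadm, r was 0.66. Acadm and Ppara followed with r = 0.89 (exact permutation p = 0.0278, adjusted p = 0.146, n = 6) and rho = 0.88 (exact permutation p = 0.025, adjusted p = 0.191), and without the same 2 arrays r was 0.67. For Cpt1b and Acadl, the entry step and the first dehydrogenase, r was 0.80 (exact permutation p = 0.05, adjusted p = 0.171, n = 6) and rho 0.81 (exact permutation p = 0.0667, adjusted p = 0.21). The relation rests on few arrays. Dropping replicate 6 with replicate 2 gave r = 0.75, and dropping it with replicate 5, whose Cpt1b reading was the same as that of replicate 2, gave r = 0.19. The dehydrogenases Acadl and Acadm had r = 0.27 (exact permutation p = 0.594, adjusted p = 0.686, n = 6).

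Correlations were also computed within the parts that the 28S signal separates, on deviations from the mean of replicates 1 and 2 and of replicates 4 to 7. All 6 pairs among the 4 enzymes were then positive, with r from 0.71 for Acadl and Acadm to 0.98 for Acadl and Hadh. The share of positive r over all pairs of probes was not taken on this scale, so these values have no background beside them. The deviations of replicates 1 and 2 are equal in size and opposite in sign, so each r rests on few free values. The r of Acadm and Hadh was 0.73, that of Acadm and Ppara 0.74 and that of Cpt1b and Acadl 0.85. The 4 pairs of Ucp3 with an enzyme had r from -0.02 to 0.13, where over the 6 arrays as a whole they ran from -0.03 to 0.74. With pairings permuted within each part, none of the 15 pairs was called, and the smallest exact adjusted p was 0.489. Of all pairs of probes 0 were called. Parts this small allow few pairings, so the test could hardly call any pair, and its result says nothing about the members.

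**Figure D4:**
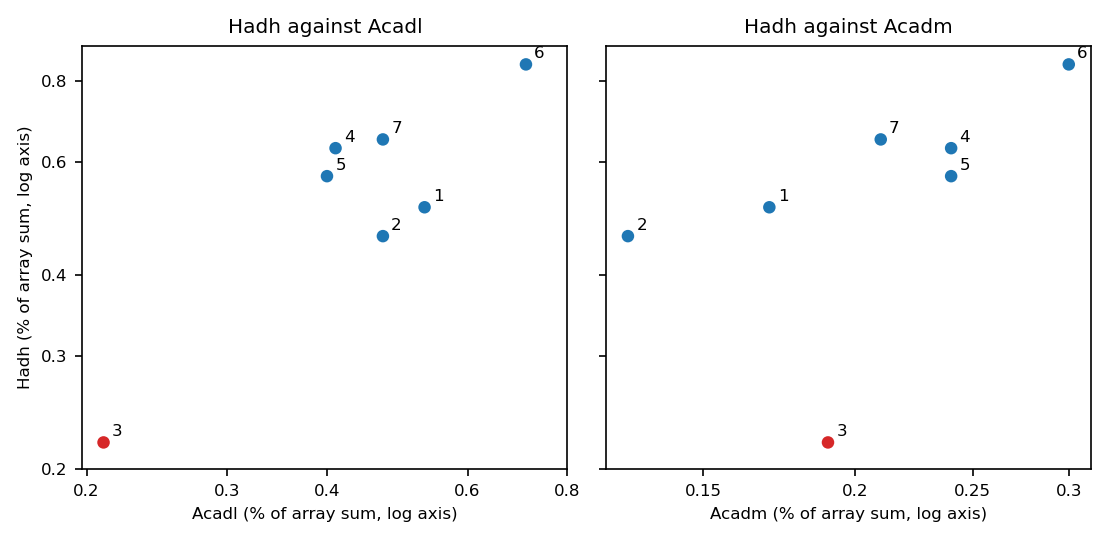
Hadh signal (y axis) against Acadl (left) and Acadm (right), in percent of the array sum on log axes, with each point marked by its replicate and replicate 3 in red. Replicate 3 is low for Hadh and Acadl together (0.22% and 0.21%), while its Acadm reading of 0.19% lies within the range of the others.

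Shared movement depended on the scale. When each array was centred on its median, the 10 pairs among the 4 enzymes and Ucp3 had r between 0.82 and 0.98 over 7 arrays, and all 10 had an unadjusted exact permutation p under 0.05, where 25.6% of all pairs did. After adjustment over all pairs none was called, with a smallest adjusted p of 0.0628 for Cpt1b and Acadl, and no pair on the array was called. Without replicate 3 these 10 correlations ran from 0.24 to 0.96, and 2 of them had an unadjusted exact permutation p under 0.05, where 13.6% of all pairs did. The 2 were Cpt1b and Acadl (r = 0.96, exact permutation adjusted p = 0.292) and Acadl and Hadh (r = 0.88, adjusted p = 0.324). With replicates 4 and 5 dropped as well, their r was 0.51 and -0.20. The 5 pairs with Ppara had r between -0.52 and -0.09 over the 7 centred arrays and between 0.15 and 0.81 without replicate 3, so all 5 changed sign when that array was dropped.

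**Figure D5:**
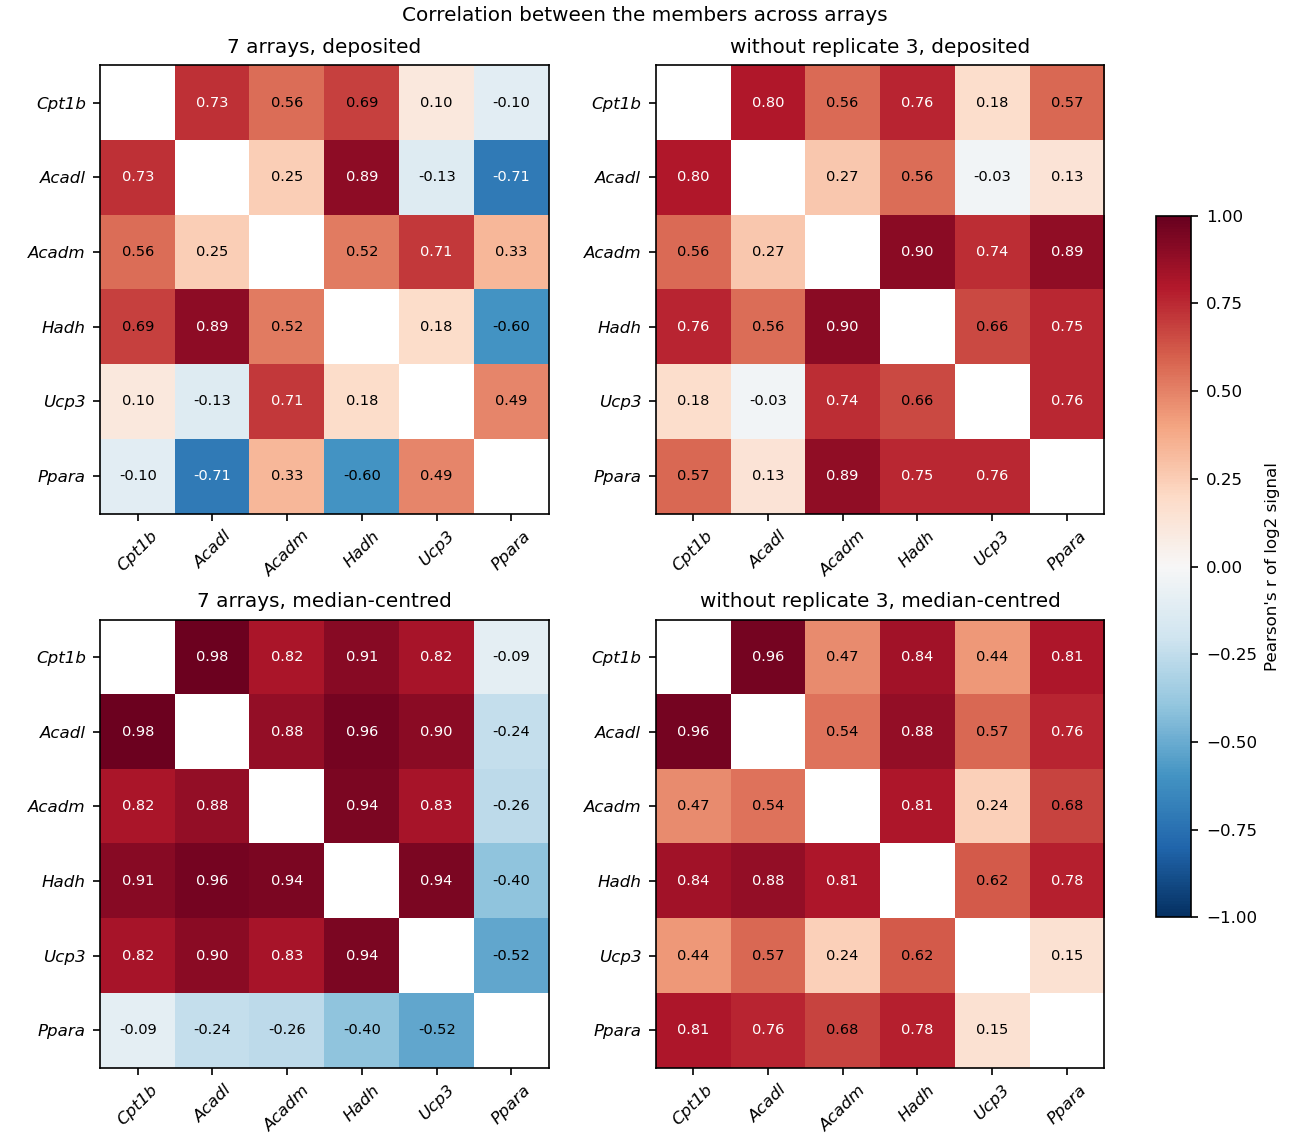
Pearson's r between log2 signals of the members (rows and columns) over 7 arrays (left) and without replicate 3 (right), on the deposited scale (top) and with each array centred on its median (bottom). Red is positive and blue negative. The 10 pairs without Ppara lie between 0.82 and 0.98 in the lower left panel, and the Ppara row changes sign between the left and right panels for most partners.

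The ratio of 2 members within an array does not depend on how the array was scaled, but it does depend on the background left in both signals. Without replicate 3 the SD of the log2 ratio had a median of 0.27 over the 15 pairs of members and 0.44 over all pairs of probes. With the floor of each array subtracted these medians were 0.44 and 0.76. The smallest values were those of Cpt1b with Acadl (0.19), Acadm with Hadh (0.20) and Acadm with Ppara (0.21), and the largest that of Acadl with Ucp3 (0.46). Over all 7 arrays the medians were 0.53 and 0.70. Ratios in replicate 3 are between readings near its floor and are not given singly. The log2 ratio of Hadh to Acadl differed from its mean over the other 6 arrays by -0.35 and -0.33 in replicates 1 and 2 and by 0.32, 0.22, -0.04 and 0.17 in replicates 4 to 7, so these 2 sets did not overlap. The ratios of 5 of the 15 pairs of members separated the sets in this way, where 40.5% of all pairs of probes did. This split of the ratios was looked at after their values were seen.

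The probes whose signal was most like that of each member were taken by r over the 6 arrays without replicate 3, 3 for each. Of these 18 correlations, in which Cpt1b and Acadl appear for both genes, none passed after adjustment over all pairs (exact permutation, adjusted p from 0.132 to 0.196). For Cpt1b they were Acadl (r = 0.80), the muscle transcription factor gene Mef2c (r = 0.77) and Hadh (r = 0.76). For Acadl they were Mef2c (r = 0.96), the muscle kinase gene Dmpk (r = 0.83) and Cpt1b (r = 0.80). The pair Acadl and Mef2c had an exact permutation p of 0.00833 and an adjusted p of 0.132 over these 6 arrays, with rho = 0.90 (exact permutation p = 0.0278, adjusted p = 0.191), and r was 0.78 when replicates 5 and 6 were dropped. Its r was 0.99 with replicate 3 included and 0.99 on the centred scale. With replicate 3 included Cpt1b had r = 0.69 with both Mef2c and Hadh and 0.73 with Acadl, and Acadl had r = 0.86 with Dmpk. The signal of Mef2c was 0.637% ± 0.128 (SD, n = 6), over 3 times the floor on each of the 6 arrays.

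For Acadm the most similar probes were Cyct, the testis form of cytochrome c (r = 0.95), the cyclin gene Ccna1 (r = 0.95) and Srf, serum response factor (r = 0.94). For Hadh they were Srf (r = 0.98), the lipoprotein lipase gene Lpl (r = 0.93) and the integrin gene Itgb5 (r = 0.90). With replicate 3 included the r of Hadh was 0.02 with Srf, 0.96 with Lpl and 0.25 with Itgb5, and that of Acadm was 0.82 with Cyct, 0.95 with Ccna1 and 0.79 with Srf. Lpl was clearly above the floor on all 6 arrays, Ccna1 on 4, Srf and Itgb5 on 2 and Cyct on none. For Ucp3 they were the polymerase subunit gene Pole2 (r = 0.99) and the ephrin genes Efnb1 (r = 0.97) and Efnb2 (r = 0.96), and for Ppara the glucose transporter gene Slc2a3 (r = 0.96), the cytokine receptor gene Csf2rb (r = 0.95) and the cell cycle kinase gene Cdk4 (r = 0.93). Of these, Pole2 was clearly above the floor on 6 arrays, Cdk4 on 3, Efnb2 on 1 and the others on none. On the centred scale the r of Ucp3 with Efnb1 and Efnb2 was 0.28 and 0.15, and that of Ppara with its 3 partners was 0.38, 0.06 and -0.09, and that of Ucp3 with Pole2 was 0.88. After quantile normalization all 3 correlations of Ucp3 were negative, from -0.58 to -0.41. For Acadm the centred r was 0.62 with Cyct, 0.48 with Ccna1 and 0.90 with Srf, and for Hadh it was 0.97 with Srf, 0.90 with Lpl and 0.92 with Itgb5. In the same order, r after quantile normalization was 0.12, -0.03 and 0.78 for Acadm and 0.23, 0.78 and 0.52 for Hadh. With replicate 3 included, on the deposited scale, r was 0.71, 0.85 and 0.90 for Ucp3 with Pole2, Efnb1 and Efnb2. It was 0.89, 0.98 and 0.63 for Ppara with Slc2a3, Csf2rb and Cdk4.

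The array holds few other genes of the pathway. Of 14 further genes of beta oxidation none has a probe, and neither do the 2 genes looked up for kinases of pyruvate dehydrogenase, Pdk2 and Pdk4. Of 10 genes for fatty acid supply, 4 have a probe, and 3 were over 3 times the floor on each of the 6 arrays. Lpl, which releases fatty acids from lipoproteins, carried 0.773% ± 0.0961, Cd36, the fatty acid translocase, 0.567% ± 0.127, and Fabp3, the muscle fatty acid binding protein, 0.450% ± 0.0772 (SD, n = 6). In replicate 3 they read 0.20%, 0.35% and 0.15%, each lower than on every other array, like Acadl and Hadh, where 14.3% of all probes were so. The floor of that array was 0.15%, so the readings of Lpl and Fabp3 bound their levels there from above. Lipe, hormone-sensitive lipase, carried 0.0633% ± 0.0197 (SD, n = 6) and stayed near the floor. Of 10 uncoupling proteins and PPAR regulators other than the members, 2 have a probe. Pparg, the adipocyte form of the receptor, carried 0.0683% ± 0.0172 and Tfam, a mitochondrial transcription factor, 0.0733% ± 0.0288 (SD, n = 6), both near the floor like Ppara. Of 14 genes of the citric acid cycle and respiratory chain, 5 have a probe (Mdh2, Pdha1, Cox4i1, Cox5b and Cox6a2). Each exceeded 3 times the floor on the 6 arrays and was lower in replicate 3 than on every other array, as were 14.3% of all probes. Mdh2, Pdha1 and Cox5b read 0.20%, 0.25% and 0.28% in replicate 3, near its floor. limma called none of these 11 probes as more variable than the trend, over 7 arrays or without replicate 3.

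Fat cells could also supply transcripts of fatty acid metabolism. Of 6 adipocyte markers 2 have a probe, and their summed level was 0.39% to 0.71% on the 6 arrays and 0.34% in replicate 3. Fabp4, the adipocyte fatty acid binding protein, carried 0.463% ± 0.114 (SD, n = 6), and Lipe was near the floor. In replicate 3 Fabp4 read 0.18% and Lipe 0.16%, both near its floor of 0.15%. Of 5 fibroblast markers 2 have probes (1 for Pdgfra and 2 for Fn1), which summed to 0.24% to 0.34% on the 6 arrays and 0.49% in replicate 3, and none was clearly above the floor. Each of these probes read 0.16% or 0.17% in replicate 3, also near its floor, so their sum there does not measure fibroblast signal. Markers of immune cells, blood and nerve have no probe. The part of fat cells in the member values was not tested.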

How the data were processed

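Per the labels, 4 µg of total RNA from each of 7 soleus muscles was reverse transcribed with gene-specific primers and a radioactive nucleotide. Arrays have 1 channel. The values deposited by the authors are linear intensity values. Apart from the 28S rRNA probe and 1 probe with no symbol, the values of an array add up to 0.998 to 1.00, so they are shares of the array sum, recorded in steps of 0.01%. The labels used here do not describe background treatment, scanner or software.

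Of 223 probes 205 have a gene symbol. Log2 values were analysed without further scaling, since the authors had scaled them. Spread was tested with limma 3.58.1 (intercept-only design, robust variance trend, one-sided F test, threshold 0.05), and pairs by exact permutation over 5040 or 720 pairings, both with Benjamini-Hochberg adjustment over the whole array. Alternatives were other scalings, a pseudocount, floor subtraction, a filter on dim probes, rank correlation, a split by the 28S signal and each array left out. Motifs were searched on both strands of the RefSeq promoter windows. The code was tested on simulated data. The members, lists and the floor criterion were chosen with earlier results of these data known. Named genes are the members, all probes of lists with 6 or fewer, and the 3 most similar probes of each member. The number of arrays limits the precision. P-values measure only the spread between these samples.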

Additional observations from a re-analysis of the deposited data

Results flagged for a closer look

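A value was looked at again where the gap between the highest or lowest array and its nearest neighbour was a large part of the whole range by Dixon's criterion for 7 arrays. Of 12 values examined, the signal and the percentile of each of the 6 members, 5 passed. The nominal rate of about 1 in 20 is no yardstick here, since the 12 values come from the same 6 probes and the same arrays. The share of all probes that pass was not computed. In each of the 5, replicate 3 was the array that stood out, and it stood apart across all probes as well. It was lowest for the percentile of Hadh (gap over range 0.930), Acadm (0.756), Acadl (0.750) and Cpt1b (0.675), and highest for the signal of Ppara (0.667).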

How the results depend on the processing

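No paired analysis was possible because the 7 samples form 1 group. With 2 times the 10th percentile as the limit, 5 members in place of 3 were clearly above the floor on all 6 arrays, and 22.0% of all probes in place of 17.0%. Leaving the 10 brightest probes out of the array sum raised all 6 levels, to between 0.216% and 1.33% without replicate 3. A smaller sum raises every level by arithmetic, so the direction says nothing about the members. Without replicate 3 limma called 5 probes as more variable than the trend, none of them a member. It called 0 without a variance trend (14 at an unadjusted p under 0.05), 0 on median-centred arrays (17), 0 after quantile normalization (10) and 0 without the dimmest probes (11). With a pseudocount it called 3 and with the floor subtracted 26. With each array left out in turn it called 2 (without replicate 5) to 14 (without replicate 4). Whether a member was among the probes called under these alternatives was not looked up. Over 7 arrays limma called 0 under each alternative, and with each array left out 0 to 5, the 5 without replicate 3.

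The call of Acadl and Hadh over 7 arrays was kept with a pseudocount (exact permutation adjusted p = 0.0426), where 12301 of all pairs were called. It was lost on median-centred arrays (r = 0.959), after quantile normalization (0.920) and with the floor subtracted (0.964), where 0 of all pairs of probes were called. It was also lost without the dimmest probes (r = 0.894) and with Spearman's rho (0.541), where 0 member pairs but 4530 and 5138 of all pairs were called. With any array left out the call was lost too, and no member pair was called. Of all pairs, 9035, 5859, 11765 and 9036 were then called without replicates 1, 2, 6 and 7. Without replicate 3, 4 or 5 no pair of probes was called, so the loss there says nothing about Acadl and Hadh. Without replicate 3 no setting called a member pair, and none called any pair of probes, so this says nothing about the members. The median spread of member ratios without replicate 3 was 0.439 with the floor subtracted (0.764 over all pairs of probes), against 0.267, and 0.248 to 0.295 with each array left out. Over 7 arrays it was 0.267 (without replicate 3) to 0.581.

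Signs of r that changed over 7 arrays follow in the order median-centred, quantile and floor-subtracted. Acadl and Ucp3 had 0.905, 0.819 and 0.553, Acadm and Ppara -0.263, -0.622 and -0.322, and Ucp3 and Ppara -0.519, -0.641 and -0.114. Spearman's rho was 0.00944 for Cpt1b and Ppara and 0.0180 for Hadh and Ppara. Without replicate 3, Acadl and Ucp3 had 0.573, 0.402 and 0.0345 in the same order, and 0.0594 within the 28S parts, where Cpt1b and Ucp3 had -0.0241. Ppara and Cdk4 had -0.0865 on median-centred arrays. After quantile normalization r was -0.0110 for Acadm and Hadh, -0.0152 for Acadm and Ppara, -0.214 for Ucp3 and Ppara and -0.0314 for Acadm and Ccna1. It was -0.460, -0.414 and -0.579 for Ucp3 with Pole2, Efnb1 and Efnb2, and -0.0731 and -0.250 for Ppara with Csf2rb and Cdk4. Spearman's rho of Acadl and Ppara was -0.162.

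With each array left out of the 7, r of Cpt1b and Ucp3 ran from -0.310 to 0.516, Cpt1b and Ppara -0.402 to 0.572, Acadl and Acadm -0.182 to 0.472, Acadl and Ucp3 -0.495 to 0.0852, Acadl and Ppara -0.930 to 0.135, Acadm and Ppara -0.0756 to 0.885, Hadh and Ucp3 -0.0317 to 0.664, and Hadh and Ppara -0.775 to 0.751. With each left out of the 6, it ran from -0.241 to 0.566 for Cpt1b and Ucp3, -0.667 to 0.449 for Acadl and Acadm, -0.457 to 0.691 for Acadl and Hadh, -0.928 to 0.274 for Acadl and Ucp3, and -0.578 to 0.545 for Acadl and Ppara. The cause of these changes was not tested. The recording step and readings near the floor limit Ppara most.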
